A study of Mus musculus with 18 samples.

Results

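Galectins are a family of lectins, proteins that bind sugars. The members described here are the galectin genes Lgals1, Lgals2, Lgals3, Lgals4, Lgals6, Lgals8 and Lgals9, followed through 6 days of growth of mouse intestinal organoids, which are closed epithelial structures grown from intestinal stem cells. They were chosen by gene symbol, and 6 of the 7 names matched 1 gene each among the 24116 genes of the table. Lgals6, a close copy of Lgals4, was not analysed here, and whether the Lgals4 values include reads of such a copy was not tested, so the levels and ranks of Lgals4 are uncertain to that extent. The family was picked with its day pattern in these data already known, so the levels and the differences between days are a description, with no test.

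All organoids were wild type, of the C57BL/6 strain, from animals of 8 weeks, and each library pooled 30 wells. There were 18 libraries of messenger RNA, 3 at each of days 0, 1, 2, 3, 4 and 5. The sample titles give replicate 1 as mouse 1 and replicate 3 as mouse 3 on every day, and replicate 2 as mouse 2 on days 0, 3, 4 and 5 and as mouse 1 on days 1 and 2. Only the titles give the line, and those of replicate 2 on days 1 and 2 may hold a slip. RNA of replicate 1 was not treated with DNase on any day, and that of replicates 2 and 3 was. From day 0 to day 5 the organoids grew with R-Spondin (500 ng/ml), Noggin (100 ng/ml) and EGF (100 ng/ml). Up to day 3 they also received Y-27632 (10 µM), which inhibits ROCK, and Wnt3a-conditioned medium (20%), and up to day 1 CHIR99021 (3 µM), which inhibits GSK3 and so raises Wnt signalling. Day and medium thus cannot be told apart. Organoids of day 0 came from the maintenance medium. All 8 epithelial markers listed reached 1 RPKM in at least 1 library. Krt19 was the highest at 534 to 2612 RPKM, and the 8 genes summed to at least 2246 RPKM in every library. Of 12 mesenchymal markers 10 stayed under 1 RPKM in every library and 2 of these were at 0, and of 13 immune markers 11 stayed under 1 RPKM and 2 were at 0.

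Galectins bind beta-galactosides, most strongly lactosamine units on branched N-glycans and on extended O-glycans, through a conserved carbohydrate recognition domain. They are made in the cytosol without a signal peptide and leave the cell by an unconventional route. Galectin-1 and galectin-2 have a single such domain and form dimers, galectin-4, galectin-8 and galectin-9 carry a pair of them on a single chain, and galectin-3 joins its domain to a long flexible tail with which it forms oligomers. In the gut epithelium galectin-4 is known for holding sulfatide-rich membrane domains together at the apical face of enterocytes, and galectin-3 for sorting glycoproteins to that face. Inside cells, galectin-3, galectin-8 and galectin-9 gather on damaged vesicles whose inner glycans have become exposed.

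In the RefSeq annotation of GRCm38.p6, Lgals1 (Entrez 16852) lies on chromosome 15 from 78926725 to 78930465 and Lgals2 (Entrez 107753) on the same chromosome from 78850860 to 78855529, with 71195 bases between them. Lgals3 (Entrez 16854) lies on chromosome 14 from 47373860 to 47386167. Lgals4 (Entrez 16855) lies on chromosome 7 from 28833122 to 28841710. Lgals8 (Entrez 56048) lies on chromosome 13 from 12439402 to 12464977, and Lgals9 (Entrez 16859) on chromosome 11 from 78962979 to 78984924.

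The RefSeq promoter table held 5 of the galectins, Lgals2, Lgals3, Lgals4, Lgals8 and Lgals9. The windows of 4 of them are printed because these genes carry the differences between days described below. Lgals3 and Lgals4 had higher levels on day 1 than on day 0, and Lgals2 and Lgals9 higher levels on day 5 than on day 1. Each window holds the 200 bases from -250 to -51 relative to the annotated start, 5′ to 3′ on the gene's own strand, in lower case, with the single motif match in capitals. The windows are chr14:47373610-47373809 on the plus strand for Lgals3, chr7:28833544-28833743 on the plus strand for Lgals4, chr15:78855580-78855779 on the minus strand for Lgals2 and chr11:78984975-78985174 on the minus strand for Lgals9, all in GRCm38.p6. The start that the table uses for Lgals4 lies inside the annotated span of the gene, so its window does too. The same holds for Lgals8, whose window was searched but is not printed. For Lgals4 alone of the genes searched, the bases after the start matched no transcript of the GENCODE annotation. Whether the Lgals4 window is a promoter of the gene is therefore uncertain.
Lgals3: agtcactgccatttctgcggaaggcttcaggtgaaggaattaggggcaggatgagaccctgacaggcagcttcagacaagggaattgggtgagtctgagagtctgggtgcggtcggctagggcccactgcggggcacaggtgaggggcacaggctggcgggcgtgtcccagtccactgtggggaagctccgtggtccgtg
Lgals4: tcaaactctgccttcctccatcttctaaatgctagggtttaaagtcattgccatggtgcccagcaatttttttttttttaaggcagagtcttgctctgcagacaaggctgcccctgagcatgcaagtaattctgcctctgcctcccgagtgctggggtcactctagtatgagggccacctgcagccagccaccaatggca
Lgals2: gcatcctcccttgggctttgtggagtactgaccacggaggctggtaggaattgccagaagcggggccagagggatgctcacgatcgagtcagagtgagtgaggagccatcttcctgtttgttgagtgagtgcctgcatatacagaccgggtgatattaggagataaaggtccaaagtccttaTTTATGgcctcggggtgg
Lgals9: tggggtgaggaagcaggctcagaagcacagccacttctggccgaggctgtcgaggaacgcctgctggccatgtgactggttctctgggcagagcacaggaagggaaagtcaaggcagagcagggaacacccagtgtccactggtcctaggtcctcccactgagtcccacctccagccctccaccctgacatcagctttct
Both strands of the 5 galectin windows were searched for 6 motifs. These were TGANTCA, which AP-1 binds, GGAATG, the core of TEAD sites, and GATAAG, named after the zinc-finger family that binds it. The others were TTTATG, bound by the intestinal CDX proteins, GGGCGG, the box of the general factor SP1, and CAAAGTCCA, a site of the nuclear receptor HNF4. The only match was TTTATG in Lgals2, at -68 to -63 on the gene's strand. The same letters occurred in 8.78% of 32851 RefSeq promoter windows of this length. The other motifs occurred in 5.57% (AP-1), 10.7% (TEAD), 5.49% (GATA), 24.6% (SP1) and 0.295% (HNF4) of those windows. The matches are a description of letters and say nothing about binding.

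Levels are given in RPKM, which counts reads per length of a gene and per sequenced read of the library, so levels can be compared between genes. The libraries differed in depth by at most 1.25 times. The reads behind the values, recovered from their whole-number steps, ranged over the 18 libraries from 56149 to 219855 for Lgals4, from 16099 to 58616 for Lgals2, from 8497 to 25699 for Lgals9, from 294 to 52964 for Lgals3, from 1690 to 2854 for Lgals8 and from 27 to 409 for Lgals1. Counting error is therefore largest for Lgals1, whose reads may also be shared with its pseudogenes, so its levels are uncertain. A lower level in these bulk libraries can come from fewer cells of a type or from less RNA per cell, which cannot be told apart.

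Lgals4 and Lgals2 were among the most abundant transcripts of the organoids. Ranked by mean over all libraries among the 24116 genes, Lgals4 stood at place 3 and Lgals2 at place 6, Lgals9 at 183, Lgals3 at 217, Lgals8 at 3989 and Lgals1 at 8813. The 6 genes summed to 2484 ± 219 RPKM (SD, n = 3) on day 0, which was 0.997% of all RPKM, and to 4683 ± 326 RPKM on day 3, which was 1.62%. The day 0 sums, 2232 to 2621 RPKM, lay below those of every later library, the lowest of which was 3060 RPKM.

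Lgals3 had the widest range of the 6 genes. On day 0 its level was 32.5, 3.93 and 4.86 RPKM in replicates 1, 2 and 3 (13.8 ± 16.2 RPKM, mean ± SD, n = 3). On day 1 it was 181, 481 and 699 RPKM (454 ± 260 RPKM), and on day 2 it was 87.3, 268 and 409 RPKM (255 ± 161 RPKM). All 6 libraries of days 1 and 2 thus lay above all 3 of day 0, and on both days replicate 1 was the lowest and replicate 3 the highest. On day 3 the level was 56.7, 740 and 120 RPKM (306 ± 378 RPKM), and replicate 2 stood apart, 13.1 times the lowest. On day 4 it was 25.96, 48.8 and 50.9 RPKM (41.9 ± 13.9 RPKM). On day 5 it was 18.5, 43.5 and 12.8 RPKM (24.9 ± 16.3 RPKM). All libraries of day 4 lay below all of day 3, and those of day 5 overlapped both day 4 and day 0. The difference of day means in log2(RPKM + 1), with the SE of the fit, was 5.32 ± 0.90 for day 1 minus day 0, -4.11 ± 0.90 for day 5 minus day 1 and 1.21 ± 0.90 for day 5 minus day 0. The ratio of mean RPKM was 32.9 for day 1 over day 0.

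The libraries that stood apart in Lgals3 were replicate 1 of day 0 and replicate 2 of day 3. Without day 0 replicate 1 the day 0 mean was 4.40 RPKM (n = 2), and the differences were 6.20 for day 1 minus day 0 and 2.09 for day 5 minus day 0. Without day 3 replicate 2 the day 3 mean was 88.3 RPKM (n = 2). Within single lines, the difference of day 1 minus day 0 was 3.14 in mouse 1 and 6.90 in mouse 3. The first value includes replicate 2 of day 1, and with replicate 1 alone, a value added after the data were seen, it was 2.44. The difference of day 5 minus day 0 was -0.78 in mouse 1, 3.17 in mouse 2 and 1.23 in mouse 3. The levels of day 1 were above those of day 0 in both lines compared, and day 5 lay above day 0 in 2 of 3 lines.

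The library with the highest Lgals3, day 3 replicate 2, also had high levels of genes of fetal-like epithelium. Ly6a, a surface marker of that state, was at 225 RPKM there against 7.43 and 29.9 RPKM in replicates 1 and 3, and Msln, the surface protein mesothelin, at 490 against 15.8 and 73.9 RPKM. Of the 15 enterocyte markers, 13 were lowest in this library among the 3 of day 3, and Krt20 and Vil1 were highest in it. Sis, the sucrase of the brush border, was at 28.8 RPKM against 597 and 178 RPKM, and Fabp1, a fatty acid binding protein, at 1072 against 4636 and 2296 RPKM. The marker genes given by name were picked after their values were seen, and their part in the Lgals3 level was not tested. Over the days, the summed level of 15 enterocyte markers was 1939 to 2710 RPKM on day 0 and 22478 to 26857 RPKM on day 5. The 10 crypt and fetal-like markers summed to 191 to 255 RPKM on day 0, 603 to 1547 RPKM on day 1 and 561 to 1143 RPKM on day 5. These sums mix opposite movements. Between days 0 and 1 the mean of S100a6, a fetal-like marker, went from 11.9 to 905 RPKM, while the stem cell marker Lgr5 went from 20.6 to 1.75 RPKM and Olfm4, a crypt marker, from 124 to 5.09 RPKM. On day 5 Olfm4 was at 446 RPKM. The 12 mesenchymal markers summed to 0.715 to 6.64 RPKM over all libraries, with a mean of 4.19 RPKM on day 0 and 1.34 RPKM on day 1.

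Lgals4, the galectin of apical membrane domains, was low only on day 0. It was at 903, 948 and 849 RPKM on day 0 (900 ± 49.6 RPKM), and at 1974, 2255 and 2752 RPKM on day 1 (2327 ± 394 RPKM). On day 2 it was 1956, 2749 and 2545 RPKM (2416 ± 412 RPKM). From day 1 on, no library overlapped those of day 0. On day 3 the level was 2187, 3307 and 2363 RPKM (2619 ± 603 RPKM), and replicate 2, the highest in Lgals3, was also the highest in Lgals4. On day 4 it was 1971, 2345 and 1816 RPKM (2044 ± 272 RPKM). On day 5 it was 1949, 2060 and 1831 RPKM (1946 ± 114 RPKM). The libraries of each of days 2 to 5 overlapped those of the day before. The difference was 1.36 ± 0.20 for day 1 minus day 0, 1.11 ± 0.20 for day 5 minus day 0 and -0.25 ± 0.20 for day 5 minus day 1. In mouse 1 and mouse 3 the first of these was 1.22 and 1.69. Its rank among all genes on days 0 to 5 was 16, 1, 1, 2, 4 and 7, so on days 1 and 2 no gene of the table had a higher mean.

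Lgals2, a dimer-forming galectin of the gut epithelium, had its lowest mean on day 1. It was at 1526, 1130 and 1574 RPKM on day 0 (1410 ± 244 RPKM), at 760, 614 and 1146 RPKM on day 1 (840 ± 275 RPKM) and at 1419, 1386 and 989 RPKM on day 2 (1265 ± 239 RPKM). Replicate 3 of day 1 overlapped day 0, and the other 2 libraries of day 1 lay below it. Among the libraries of replicate 3, that of day 2 was the lowest. On day 3 it was 2119, 788 and 1686 RPKM (1531 ± 679 RPKM), with replicate 2 lowest, the library that was highest in Lgals3 and Lgals4. Without that library the day 3 mean of Lgals2 was 1902 RPKM (n = 2). On day 4 the level was 1378, 1633 and 1718 RPKM (1576 ± 177 RPKM) and on day 5 it was 1786, 1828 and 1628 RPKM (1748 ± 105 RPKM). The libraries of day 5 lay above all of day 1 and, by a small margin, all of day 0. The difference was -0.78 ± 0.31 for day 1 minus day 0 and 1.10 ± 0.31 for day 5 minus day 1. In mouse 1 and mouse 3 the first of these was -1.16 and -0.46. For day 5 minus day 0 the difference of day means was 0.32 ± 0.31, and -0.28 after quantile normalization, so its direction depended on the scaling.

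Lgals9, a galectin with a pair of sugar-binding domains that is known as a ligand of the immune receptor Tim-3, had its highest mean on day 5. It was at 142, 136 and 155 RPKM on day 0 (144 ± 9.44 RPKM), at 126, 121 and 158 RPKM on day 1 (135 ± 19.8 RPKM) and at 150, 203 and 182 RPKM on day 2 (178 ± 26.6 RPKM). Days 0 and 1 overlapped. On day 3 it was 265, 173 and 193 RPKM (210 ± 48.6 RPKM), on day 4 it was 289, 240 and 257 RPKM (262 ± 25.1 RPKM) and on day 5 it was 260, 306 and 339 RPKM (302 ± 39.9 RPKM). Each day overlapped the day before, while all libraries of day 5 lay above all of days 0 and 1. The difference was 1.05 ± 0.18 for day 5 minus day 0 and 1.16 ± 0.18 for day 5 minus day 1. Within lines, day 5 minus day 0 was 0.86 in mouse 1, 1.16 in mouse 2 and 1.13 in mouse 3.

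Lgals8, which marks damaged vesicles for autophagy, varied least. Its lowest library was at 11.98 RPKM and its highest at 17.98 RPKM, and the day means ran from 13.1 ± 1.16 RPKM on day 0 to 16.2 ± 2.11 RPKM on day 4 and 13.1 ± 0.1001 RPKM on day 5. The differences of day 1 minus day 0, day 5 minus day 1 and day 5 minus day 0 were 0.06, -0.05 and 0.01, each ± 0.15, and each changed sign under at least 1 other scaling or with 1 library left out. Day 5 lay below day 4 without overlap.

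Lgals1, a dimer-forming galectin that is abundant in mesenchymal cells, had the lowest mean of the 6 genes on every day. In day 0 replicate 3, however, Lgals3 was lower. It was at 3.08, 1.06 and 5.63 RPKM on day 0 (3.26 ± 2.29 RPKM), at 6.63, 11.6 and 1.96 RPKM on day 1 (6.72 ± 4.79 RPKM) and at 2.62, 2.09 and 5.18 RPKM on day 2 (3.30 ± 1.65 RPKM). The libraries of day 1 spanned nearly 6-fold and overlapped day 0. On day 3 it was 0.722, 3.03 and 2.92 RPKM (2.23 ± 1.30 RPKM), on day 4 it was 0.676, 0.827 and 1.48 RPKM (0.994 ± 0.426 RPKM) and on day 5 it was 1.10, 1.51 and 1.39 RPKM (1.33 ± 0.211 RPKM). Day 5 lay below all of day 1, with a difference of -1.50 ± 0.49. Day 1 minus day 0 was 1.26 in mouse 1 and -1.16 in mouse 3, opposite in the 2 lines that give a value.

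**Figure D1:**
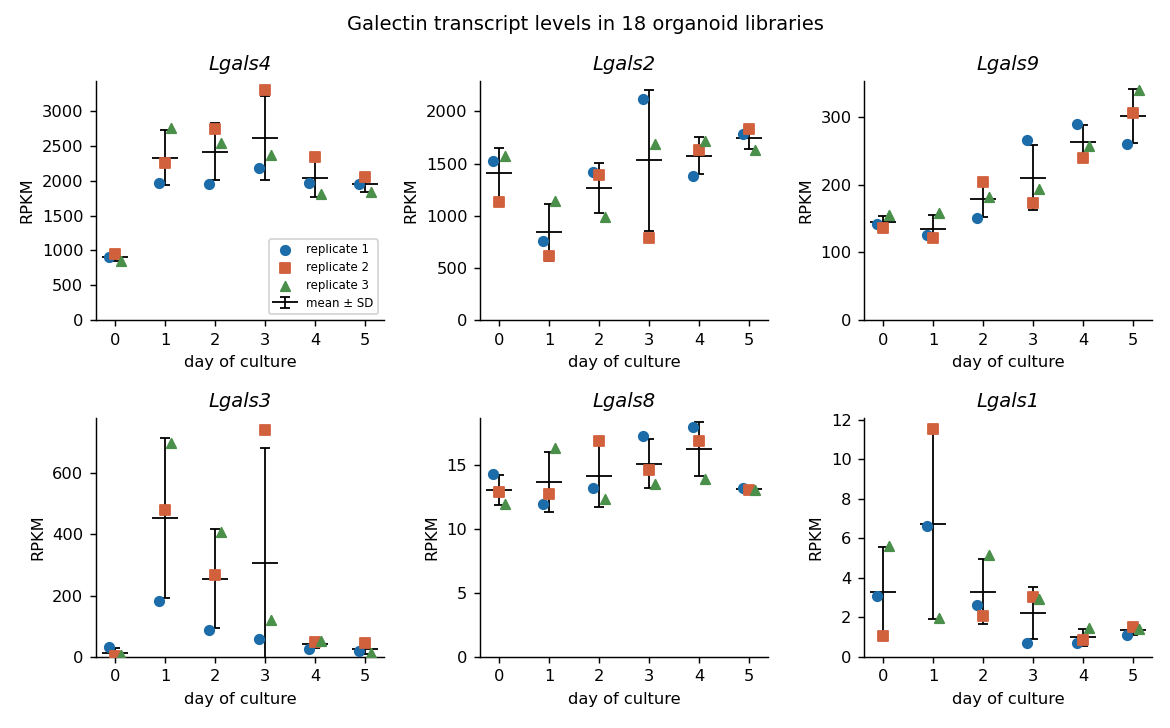
RPKM of each galectin (vertical axis, from 0) against the day of culture (horizontal axis) in 18 libraries, with symbols for replicates 1, 2 and 3 and black marks for the mean ± SD of 3 libraries. The day 3 bar of Lgals3 reaches below 0 and is cropped at the axis. Lgals4 steps from 900 RPKM on day 0 to 2327 RPKM on day 1, Lgals3 is high from day 1 to day 3 with a wide spread, and Lgals9 is highest on day 5.

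Counted over the family, the 3 libraries of day 1 lay wholly above those of day 0 for 2 of the 6 genes, Lgals3 and Lgals4, and wholly below for 0, where 41.2% of all 11111 tested genes did not overlap in either direction (21.6% higher, 19.6% lower). From day 1 to day 2 and from day 2 to day 3, 0 of 6 did not overlap, against 6.55% of tested genes (4.18% higher, 2.38% lower) and 1.61% (0.729% higher, 0.882% lower). From day 3 to day 4 it was 1 of 6, Lgals3, which was lower (background 5.11%, with 1.55% higher and 3.56% lower), and from day 4 to day 5 it was 1 of 6, Lgals8, also lower (background 8.21%, with 5.43% higher and 2.78% lower). Between day 5 and day 1 it was 4 of 6, with Lgals2 and Lgals9 higher and Lgals1 and Lgals3 lower (background 52.9%, with 19.0% higher and 33.8% lower). Between day 5 and day 0 it was 3 of 6, Lgals2, Lgals4 and Lgals9, all higher (background 54.1%, with 19.2% higher and 34.9% lower). The genes were picked on these same differences, so nothing is read from these counts. The count for day 1 against day 0 was 5 without day 1 replicate 3 and 4 after quantile normalization. The share of all tested genes under these settings is not given here. With a library left out, any gene is also less likely to overlap, so nothing is read from these counts either.

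**Figure D2:**
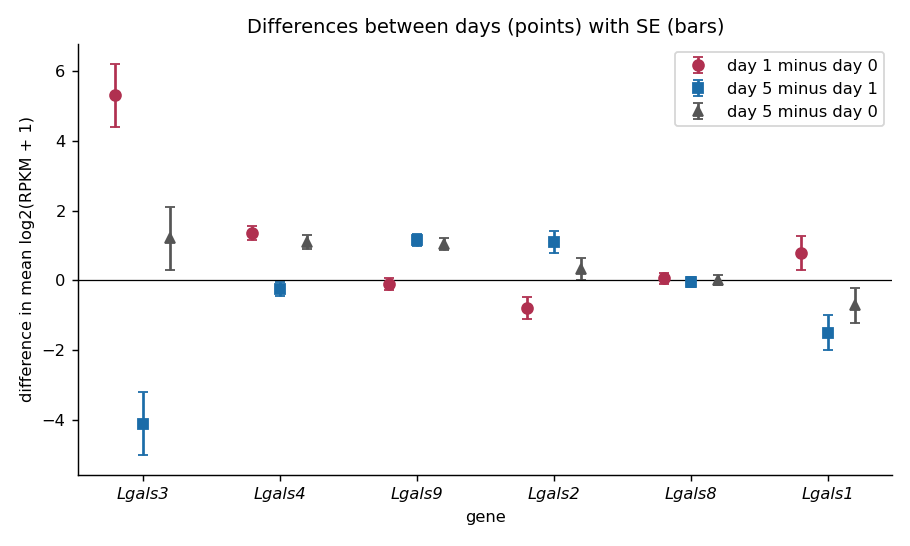
Difference in mean log2(RPKM + 1) between days (vertical axis) for each galectin (horizontal axis), with SE from the fit across all genes as bars. Red circles are day 1 minus day 0, blue squares day 5 minus day 1 and grey triangles day 5 minus day 0. Lgals3 shows 5.32 and -4.11 for the first 2, while the values of Lgals8 lie at 0.06, -0.05 and 0.01.

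The order of the levels changed between days. On day 0 it was Lgals2, Lgals4, Lgals9, Lgals3, Lgals8 and Lgals1, and only the neighbours Lgals3 and Lgals8 overlapped between libraries. On days 1, 2 and 3 it was Lgals4, Lgals2, Lgals3, Lgals9, Lgals8 and Lgals1. Lgals3 and Lgals2 overlapped on day 1, and Lgals9 and Lgals3 overlapped on days 2 and 3. On days 4 and 5 Lgals9 was again above Lgals3, and the only neighbours that overlapped were Lgals3 and Lgals8 on day 5. As a share of the summed galectin RPKM, Lgals2 made up 56.5% on day 0, 22.1% on day 1 and 43.3% on day 5. Lgals4 made up 36.5% on day 0, 62.2% on day 1 and 48.2% on day 5. Lgals3 made up 0.535%, 11.4% and 0.605% on these days, and Lgals9 5.82%, 3.63% and 7.502%. These shares sum to a fixed total, so that a gain of 1 gene lowers the others.

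**Figure D3:**
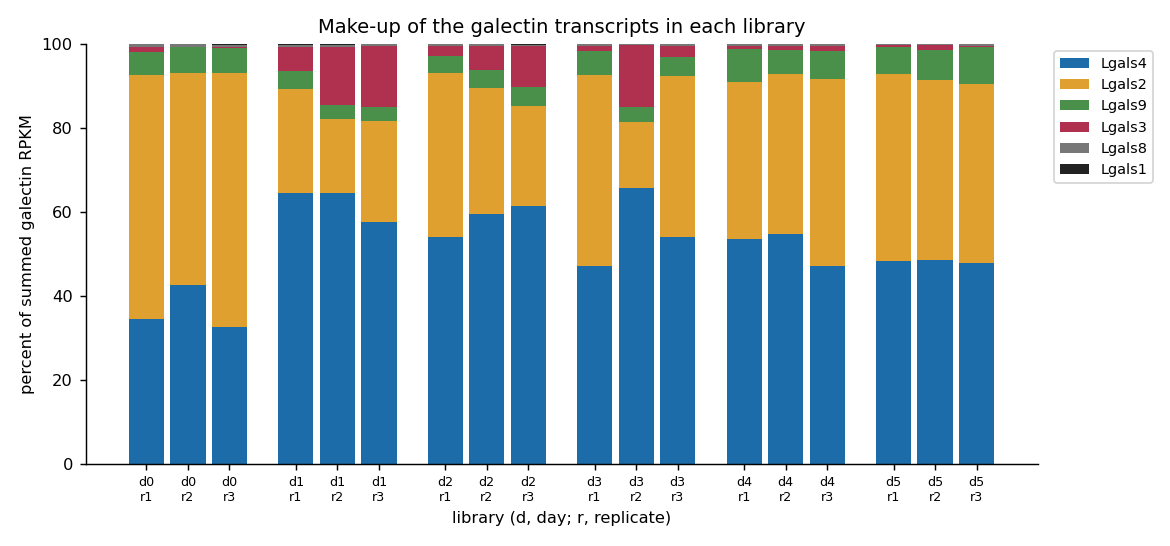
Share of each galectin in the summed galectin RPKM (vertical axis, percent) in each of 18 libraries (horizontal axis, d for day and r for replicate). Lgals2 is the largest part in the 3 libraries of day 0 and Lgals4 in the later ones, and the Lgals3 part is 13.8% and 14.6% in replicates 2 and 3 of day 1 and 14.7% in replicate 2 of day 3.

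Over all 18 libraries Lgals3 and Lgals4 had a Pearson r of 0.79 on log2(RPKM + 1) and a Spearman rho of 0.84, as a description of libraries that share days and lines. This was the highest r of the 15 pairs of galectins. The lowest were those of Lgals1 with Lgals9 (r -0.72, rho -0.69) and with Lgals2 (r -0.71, rho -0.54), and Lgals2 with Lgals3 had an r of -0.57 and a rho of -0.47. Within days, the library highest in Lgals3 was also the highest in Lgals4 on 3 of 6 days and the highest in Lgals2 on 3 of 6. That library was the lowest in Lgals4 on 1 of 6 days and the lowest in Lgals2 on 2 of 6. With 3 libraries a day, no shared order is read from these counts. The 3 genes outside the family whose levels followed each galectin most closely were also listed, over the same 18 libraries. For Lgals3 they were S100a10 (r 0.977, rho 0.975), the partner of annexin A2, Rhod (r 0.976, rho 0.942), a small GTPase, and Krt8 (r 0.973, rho 0.955), an epithelial keratin. S100a10 was at 196 ± 79.3 RPKM on day 0, 838 ± 93.5 RPKM on day 1 and 269 ± 56.1 RPKM on day 5. For Lgals4 they were Anxa10 (r 0.973), an annexin, Capg (r 0.970), an actin-capping protein, and Arpc3 (r 0.965), a subunit of the Arp2/3 complex. For Lgals9 they were Wdr45 (r 0.943), an autophagy protein, Adh4 (r 0.928), an alcohol dehydrogenase, and Pip5k1b (r 0.928), a lipid kinase. For Lgals2 they were Cd38 (r 0.886, rho 0.649), an enzyme that consumes NAD, Rab19 (r 0.877) and Itpka (r 0.875), an inositol kinase. For Lgals8 they were Cyb5a (r 0.880), Slc22a5 (r 0.867), a carnitine transporter, and Gstm3 (r 0.861). Lgals1 was below the 5 RPKM mean set for this listing. The genes were picked as the closest of all tested, so high values are a product of that choice.

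Replicate 1, without DNase, could be compared with the treated libraries across all days, a contrast that the choice of the genes did not use. With a coefficient for each day, limma's adjusted p was 0.286 to 0.958 for the 6 galectins, and 0 of 6 passed, against 11.0% of all tested genes. At an unadjusted p under 0.05 it was also 0 of 6, with no share of all genes given at that threshold. Lgals3 had the largest difference, -0.76 ± 0.54 for untreated minus treated libraries. Without day 0 replicate 1 it was -1.44 with limma's adjusted p at 0.0362, so that this library decided the call. Replicate 1 was the lowest in Lgals3 on days 1 to 4. On days 1 and 2, where replicate 2 has the same mouse in its title, Lgals3 was at 181 against 481 RPKM and at 87.3 against 268 RPKM. On the other days the DNase step and the line cannot be told apart.

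The sugars that galectins bind are built by glycosyltransferases, whose genes were followed with those of galectin partners in 8 lists of 76 genes, 61 of them tested. The lists were drawn up with earlier results of these data known. Over all days, 19 of the 61 passed limma's F test at an adjusted p under 0.05, against 25.3% of all tested genes. On day 1 against day 0, 8 rose and 6 fell (14 of 61, against 18.6% of all genes, 9.54% higher and 9.05% lower). The median change of the 61 was 0.05, beside -0.002 over all genes. On day 5 against day 1, 12 rose and 4 fell (16 of 61, against 27.8%, 11.8% higher and 16.1% lower), with a median of 0.25 beside -0.15. On day 5 against day 0, 17 rose and 2 fell (19 of 61, against 24.4%, 11.4% higher and 13.0% lower), with a median of 0.36 beside -0.17. These comparisons share the libraries of day 0, day 1 or day 5. A median-of-ratios rescaling moved the median of all genes from -0.17 to -0.004 for day 5 against day 0, where the share of higher genes among all calls went from 46.7% to 58.9%, and from -0.15 to -0.03 for day 5 against day 1. Leaving out 1 library gave 9 to 20, 9 to 18 and 6 to 22 calls in the 3 comparisons. The counts fell by over 1.5 times without day 0 replicate 2 (9) or day 1 replicate 3 (9) in the first, without day 1 replicate 2 (10) or day 5 replicate 1 (9) in the second, and, in the third, without replicate 2 (6) or replicate 3 (8) of day 0 and without replicate 1 (6) or replicate 2 (9) of day 5. The F test gave 11 and 12 without day 0 replicates 2 and 3. Of the 14 calls of day 1 against day 0, 8 were kept under every alternative run for them and 6 were lost under at least 1. For day 5 against day 1 it was 9 kept and 7 lost, and for day 5 against day 0 it was 5 kept and 14 lost. The counts of each list below stand beside these same shares of all genes, and nothing is read from them about a list. No share of all genes is given at an unadjusted p under 0.05, so nothing is read from those counts either. The genes named next kept their call under every alternative run for them, unless said otherwise.

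The lactosamine list covers the enzymes that add galactose and N-acetylglucosamine in turn. On day 1 against day 0, 2 of its 9 tested genes rose and 0 fell (18.6% of all genes called, 9.54% higher and 9.05% lower). B4galt6, which makes lactosylceramide, rose from 14.2 ± 1.59 to 45.2 ± 3.34 RPKM (n = 3 each), a change of 1.61 ± 0.14 with limma's adjusted p at 1.36e-05, and fell by day 5 to 16.1 ± 1.03 RPKM (-1.43 ± 0.14, 2.35e-05). B3gnt3, which extends mucin-type O-glycans, rose from 36.5 ± 8.22 to 64.6 ± 7.58 RPKM (0.82 ± 0.17, adjusted p 0.00341) between days 0 and 1. On day 5 against day 1, 1 rose and 1 fell (27.8% of all genes called, 11.8% higher and 16.1% lower). Against day 0, 5 rose and 0 fell (24.4% of all genes called, 11.4% higher and 13.0% lower). Of these, the calls of B4galt5, B4galt1 and B3gnt3 were lost under 14, 5 and 12 of 27 alternatives. B3gnt7, which extends lactosamine chains, was at 3.72 ± 1.64 RPKM on day 0, 9.04 ± 1.10 RPKM on day 1 and 28.7 ± 2.32 RPKM on day 5, and rose on day 5 against day 0 by 2.71 ± 0.39 (limma's adjusted p 0.000434) and against day 1 by 1.57 ± 0.39 (0.0108). Gcnt2, which branches those chains, rose from 1.98 ± 0.589 RPKM on day 0 to 5.30 ± 0.626 RPKM on day 5 (1.09 ± 0.24, adjusted p 0.00685).

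Among the 4 tested genes of O-glycan cores, 2 rose on day 1 against day 0 and 2 on day 5 against day 0. On day 5 against day 1, 0 passed limma's adjusted threshold, and 1 was higher at an unadjusted p under 0.05. Gcnt3, which branches mucin-type O-glycans, rose from 3.10 ± 1.31 RPKM on day 0 to 19.6 ± 1.69 RPKM on day 1 (2.37 ± 0.26, limma's adjusted p 6.18e-05) and was at 24.1 ± 5.18 RPKM on day 5 (2.64 ± 0.26 against day 0, 2.01e-05).

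The 12 genes of N-glycan branching were all tested. On day 1 against day 0, 1 rose and 3 fell, on day 5 against day 1, 4 rose and 1 fell, and on day 5 against day 0, 2 rose and 1 fell. Mgat4c, a gene of the GlcNAc-transferase IV family, rose from 0.184 ± 0.224 to 3.10 ± 0.684 RPKM on day 1 (1.80 ± 0.22, limma's adjusted p 0.000112) and fell to 0.605 ± 0.221 RPKM on day 5 (-1.35 ± 0.22, 0.00114). Man2a2, a Golgi mannosidase that trims the glycan before it is branched, fell from 5.37 ± 0.306 RPKM on day 0 to 2.02 ± 0.731 RPKM on day 1 (-1.11 ± 0.23, 0.00444) and was at 2.00 ± 0.587 RPKM on day 5. Mgat3, which adds the bisecting residue that hinders further branching, was at 9.71 ± 0.618 RPKM on day 0 and 8.26 ± 1.59 RPKM on day 1. It rose to 28.6 ± 0.691 RPKM on day 5 (1.69 ± 0.31 against day 1, adjusted p 0.0027). Fut8, which adds the core fucose and no branch, was at 25.7 ± 2.44 RPKM on day 0. Its fall to 16.5 ± 3.68 RPKM on day 1 was called (-0.62 ± 0.16, limma's adjusted p 0.016), but the call was lost under 3 of 27 alternatives. Fut8 then rose to 27.1 ± 1.21 RPKM on day 5 (0.70 ± 0.16 against day 1, adjusted p 0.00864). Day 5 against day 0 was not called (0.08 ± 0.16, adjusted p 0.737). Mgat5, which makes the branch that galectin-3 is best known to bind, was at 8.11 ± 0.797 RPKM on day 0, 7.59 ± 1.45 RPKM on day 1 and 6.96 ± 2.14 RPKM on day 5 and passed in none of the 3 comparisons.

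Sulfatide, the lipid that galectin-4 binds, is made by Ugt8a and Gal3st1 and broken down with Arsa and the saposin precursor Psap. Of the 3 tested genes of this list, 0 rose and 2 fell on day 1 against day 0, 2 rose and 0 fell on day 5 against day 1, and 1 rose and 1 fell on day 5 against day 0. Gal3st1, which adds the sulfate, rose from 9.29 ± 1.79 RPKM on day 1 to 23.3 ± 3.31 RPKM on day 5 (1.24 ± 0.25, limma's adjusted p 0.00432). Arsa, the sulfatase that removes it, rose from 1.15 ± 0.506 to 6.29 ± 1.15 RPKM between the same days (1.77 ± 0.28, adjusted p 0.00088). Its level on day 0 was 3.64 ± 1.17 RPKM. The fall of Arsa from day 0 to day 1 was called (-1.11 ± 0.28, limma's adjusted p 0.0123), but the call was lost under 2 of 26 alternatives. Day 5 against day 0 was not called for Arsa (0.67 ± 0.28, adjusted p 0.0863). Ugt8a, which makes the precursor, reached at most 0.0243 RPKM in any library and was not tested. Of 8 tested genes that cap glycans with sialic acid, fucose or other sugars, 1 rose on day 5 against day 1 and 2 rose on day 5 against day 0. On day 1 against day 0, 0 of them passed limma's adjusted threshold, and 1 was higher at an unadjusted p under 0.05.

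Among 12 tested glycoproteins that galectins bind, 1 rose on day 1 against day 0, 1 rose and 1 fell on day 5 against day 1, and 2 rose on day 5 against day 0. Slc2a2, the glucose transporter GLUT2, rose from 7.53 ± 3.46 RPKM on day 0 to 67.7 ± 25.4 RPKM on day 5 (3.02 ± 0.74, limma's adjusted p 0.0119), a call that was lost without day 5 replicate 1 (0.0585). It is also 1 of the enterocyte markers, whose sum was higher on day 5. Of the 10 genes of the response to damaged vesicles, 2 rose and 1 fell on day 1 against day 0, 3 rose and 1 fell on day 5 against day 1, and 3 rose and 0 fell on day 5 against day 0. The ESCRT-III subunit Chmp4b rose from 59.8 ± 3.54 to 94.3 ± 11.9 RPKM on day 1 (0.64 ± 0.13, adjusted p 0.00297), and Pdcd6ip, whose product ALIX recruits ESCRT-III and binds galectin-3, from 35.5 ± 3.50 to 55.7 ± 5.08 RPKM (0.63 ± 0.13, 0.00344). Calcoco1, an autophagy receptor, fell from 2.41 ± 0.231 to 0.620 ± 0.181 RPKM (-1.08 ± 0.21, 0.00282) and rose to 4.02 ± 0.596 RPKM on day 5 (1.63 ± 0.21 against day 1, 0.00022). Map1lc3b, which encodes the autophagosome protein LC3B, rose from 12.4 ± 0.761 RPKM on day 1 to 23.4 ± 5.12 RPKM on day 5 (0.84 ± 0.18, 0.00523).

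**Figure D4:**
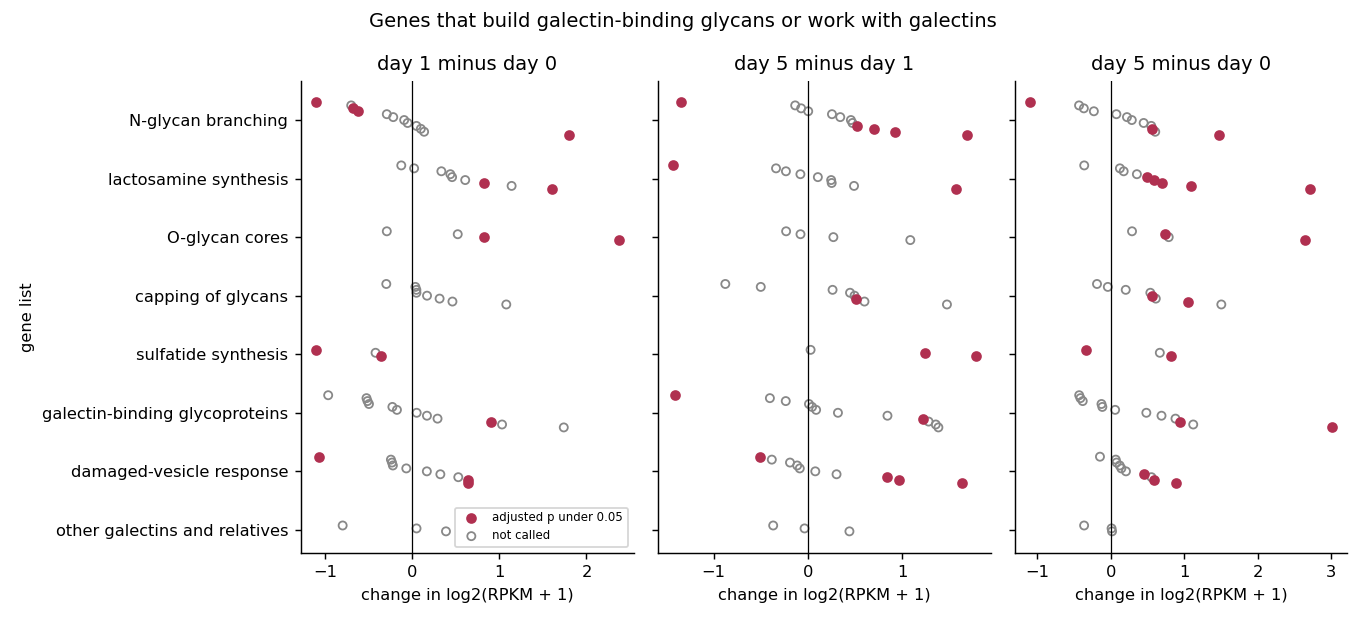
Change in log2(RPKM + 1) (horizontal axis) of the 61 tested genes in 8 lists (rows) for day 1 minus day 0, day 5 minus day 1 and day 5 minus day 0, with 1 circle a gene, filled where limma's adjusted p over all genes was under 0.05. On day 5 minus day 0, 17 of the 19 filled circles lie to the right of 0, and 5 of these 19 calls were kept under every alternative. Of all tested genes, 11.4% were called higher and 13.0% lower in that comparison. The share of higher genes among all calls depended on the scaling, at 46.7% here and 58.9% after median-of-ratios rescaling.

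Of the 3 tested genes related to galectins, limma called 0 in the F test and in the 3 comparisons, with 1 of 3 under an unadjusted p of 0.05 in the F test and 1 of 3 on day 1 against day 0. Lgals12, a galectin best known from fat cells, was at 15.5 ± 7.10 RPKM on day 0, 7.90 ± 1.83 RPKM on day 1 and 10.9 ± 0.646 RPKM on day 5, and limma's adjusted p was 0.109 on day 1 against day 0. Lgals3bp, a secreted glycoprotein that galectin-3 binds, stayed between 122 and 180 RPKM in all libraries (adjusted p 0.0821 in the F test), and Lgalsl, a galectin-related protein, between 3.44 and 10.4 RPKM (0.713). Lgals7, a galectin of stratified epithelia, reached at most 0.761 RPKM, and Grifin, a lens protein of the family, was listed at 0 in all libraries, and both were under the filter for testing.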

How the data were processed

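The authors deposited RPKM values per gene, already scaled to library size and gene length. Build mm10, STAR 2.5.2b, edgeR 3.20.5 and bcl2fastq 2.17 are listed in the submitters' processing notes. Not given in the sources used here are their settings, the annotation and the treatment of multi-mapping reads. All 18 columns were used.

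Tests used limma 3.58.1 in R 4.3.3 (lmFit, eBayes with a trend) on log2(RPKM + 1), with all days in 1 fit, for the 11111 genes that reached 1 RPKM in 3 libraries or more. The pseudocount of 1 understates changes of low genes. P-values are two-sided and Benjamini-Hochberg adjusted over all tested genes, and genes with an adjusted p under 0.05 were called. They measure the spread between these libraries, of 3 lines in all, and by their titles 2 of the 3 libraries of days 1 and 2 come from 1 line.

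Reads were recovered where 1 step made every value whole within 0.02 of a read. On data simulated for day 1 against day 0 over 11111 genes, of which 200 were changed, 66% of changes of 1 in log2 and 93% of changes of 2 were called, with 12 false calls. The simulated libraries shared no lines, and far fewer genes changed in them than were called in the data. These rates therefore need not hold for the comparisons reported.

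The galectins and the lists were chosen with earlier results of these data known. Named genes are the galectins, up to 3 called genes a list and comparison with the largest change, mainly those that kept their call under every alternative, and the 3 genes closest to each galectin with a mean of at least 5 RPKM. Mgat5 and the marker genes of day 3 replicate 2 were named after their values were seen. Alternatives were another pseudocount, other filters, 2 other scalings, the replicate number as a block, the mouse as a factor, DNase-treated libraries alone, only the days compared, and leaving out each library.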

Additional observations from a re-analysis of the deposited data

How the results depend on the processing

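The counts of called glycan and partner genes stayed within 1.5 times of those given under the other pseudocount, filters, scalings and factors. With the replicate block they were 26 over all days, 17 for day 1 against day 0, 17 for day 5 against day 1 and 21 for day 5 against day 0. The deviations of libraries with the same replicate number correlated at -0.643 to 0.806 (mean 0.157), over 0.1 in 27 of 45 pairs. For different numbers the mean was -0.076, with 25 of 90 pairs over 0.1. Libraries of the same number were thus more alike on average, though not throughout, and the main fit had no block. Of the 49 calls that the 3 comparisons of days gave among the listed genes, 48 were kept with the block and 45 with the mouse as a factor, and 30 in the 12 DNase-treated libraries alone, where fewer samples enter. Leaving out 1 library gave 11 to 26 calls over all days, 9 to 20 for day 1 against day 0, 9 to 18 for day 5 against day 1, 6 to 22 for day 5 against day 0, 0 to 1 galectins for DNase, and 2 to 5 galectins not overlapping between days 1 and 0. Of the galectins, 4 in place of 2 did not overlap between days 1 and 0 after quantile normalization, which gives the highest-ranked genes the values of a few shared ranks. The share of all tested genes that did not overlap under these settings is not given here, so nothing is read from these galectin counts. The galectin differences changed sign in 7 of 486 values, 1 for Lgals2 (-0.28 for day 5 minus day 0 under quantile normalization) and 6 for Lgals8. Lgals4 for day 5 minus day 0 was 0.48 under quantile normalization against 1.11, Lgals9 0.53 against 1.05, and Lgals4 for day 5 minus day 1 was -1.18 against -0.25. In DNase-treated libraries alone Lgals3 for day 1 minus day 0 was 6.75. Depth limits the values of Lgals1 most, with as few as 27 reads.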
